A study of Mus musculus with 2 samples.

Results

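Cytotoxic CD8+ T cells kill by releasing lytic granules, and the transcripts of 10 genes of this machinery were followed in OT-I cells with and without overexpressed Eomes, a T-box transcription factor. The genes were taken by name and fall into 4 roles. *Prf1* encodes the pore protein perforin. *Srgn*, *Nkg7* and *Lamp1* encode matrix and membrane proteins of the granule, *Ctsc* and *Ctsw* encode granule proteases, and *Rab27a*, *Unc13d*, *Stx11* and *Stxbp2* encode proteins that dock granules and fuse them with the plasma membrane. All 10 were among the 14732 genes listed for at least 1 of the 2 libraries and among the 9925 genes counted as expressed, which reached an RPKM of 1 in 1 library or both. RPKM scales the reads of a gene to its transcript length and to the size of the library. Granzymes were not among the genes followed.

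OT-I mice carry a transgenic T cell receptor that recognizes the ovalbumin peptide SIINFEKL. Both groups came from CD8+ T cells of spleen and lymph nodes of OT-I transgenic C57BL/6 mice aged 6 to 8 weeks, and the cells were cultured with the peptide (2.5 ng/mL) and IL-2 (10 U/mL) for 24 h. Cells were then transduced with the retroviral vector RVKM, which carries an IRES-hCD2 cassette, either empty (control) or encoding Eomes. Transduced cells were sorted as hCD2+ cells 48 h later, so that each group is a pool of cells with different vector insertions, and were stimulated again for 3 days with peptide and IL-2 at those doses and at 40000 cells per well. Each group is 1 library of total RNA, with no replicate. Differences between the libraries therefore carry no replicate error and no p-value, and an effect of Eomes and any other difference between the 2 cultures cannot be told apart. Pairs of levels are given for control cells first and for Eomes-overexpressing cells second, and a log2 ratio is that of Eomes-overexpressing over control.

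After recognition of a target cell, lytic granules move along microtubules to the contact site. There the small GTPase Rab27a and its partner Munc13-4 (encoded by *Unc13d*) tether and prime the granule, and syntaxin-11 (*Stx11*) with its chaperone Munc18-2 (*Stxbp2*) takes part in membrane fusion. Perforin, stored in the granule on the proteoglycan serglycin (*Srgn*), then opens pores through which granzymes enter the target. Inherited loss of perforin or of any of these 4 docking and fusion proteins causes immune disorders with hemophagocytic lymphohistiocytosis in people.

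The promoter windows of the 3 genes with the largest differences between the libraries, and of *Rab27a*, which holds a match, are shown so that they can be read for the short sequence that T-box factors such as Eomes recognize. Each runs from 250 bases before to 50 bases after the RefSeq transcription start, 5′ to 3′ on the strand of the gene (build GRCm38.p6). The windows lie at chr10:61297586-61297885 on the plus strand for *Prf1*, at chr7:43436888-43437187 on the plus strand for *Nkg7*, at chr10:62527396-62527695 and chr10:62507708-62508007 on the minus strand for the 2 starts of *Srgn*, and at chr9:73044560-73044859 on the plus strand for the upstream start of *Rab27a*. Capitals mark the T-box site AGGTGTGA or its reverse complement TCACACCT.
Prf1: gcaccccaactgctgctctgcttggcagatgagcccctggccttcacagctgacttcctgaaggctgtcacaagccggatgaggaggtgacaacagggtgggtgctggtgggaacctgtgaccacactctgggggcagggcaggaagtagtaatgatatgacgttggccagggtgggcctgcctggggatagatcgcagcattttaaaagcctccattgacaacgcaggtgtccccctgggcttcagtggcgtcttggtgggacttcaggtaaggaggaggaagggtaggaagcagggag
Nkg7: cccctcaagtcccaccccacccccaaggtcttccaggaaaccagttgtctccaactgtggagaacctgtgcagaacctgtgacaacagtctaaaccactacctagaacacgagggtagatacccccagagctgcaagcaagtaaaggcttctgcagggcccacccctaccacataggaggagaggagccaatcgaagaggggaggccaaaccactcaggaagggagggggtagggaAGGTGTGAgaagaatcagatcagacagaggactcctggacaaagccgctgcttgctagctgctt
Srgn, upstream start: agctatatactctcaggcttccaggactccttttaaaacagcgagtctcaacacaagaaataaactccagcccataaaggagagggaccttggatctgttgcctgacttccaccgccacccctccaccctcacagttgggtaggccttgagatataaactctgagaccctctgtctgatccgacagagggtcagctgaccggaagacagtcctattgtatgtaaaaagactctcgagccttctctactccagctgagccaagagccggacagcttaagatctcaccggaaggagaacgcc
Srgn, downstream start: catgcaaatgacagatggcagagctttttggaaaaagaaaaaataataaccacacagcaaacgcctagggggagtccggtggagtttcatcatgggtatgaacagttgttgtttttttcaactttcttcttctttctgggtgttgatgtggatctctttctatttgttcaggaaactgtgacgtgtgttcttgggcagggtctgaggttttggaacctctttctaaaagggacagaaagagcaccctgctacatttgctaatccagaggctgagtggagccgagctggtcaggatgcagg
Rab27a, upstream start: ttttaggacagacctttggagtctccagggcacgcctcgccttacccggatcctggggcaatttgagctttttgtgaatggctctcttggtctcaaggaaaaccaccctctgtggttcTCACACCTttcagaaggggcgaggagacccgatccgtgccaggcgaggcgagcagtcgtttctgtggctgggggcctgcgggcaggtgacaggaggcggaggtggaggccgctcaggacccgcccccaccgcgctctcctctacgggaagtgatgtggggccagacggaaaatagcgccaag

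The T-box site AGGTGTGA, searched on both strands, was found in 2 of the 10 promoter windows that RefSeq gives for 8 of these genes. In *Nkg7* it starts 14 bases before the RefSeq transcription start, and in *Rab27a* the reverse complement starts 132 bases before it. The GENCODE annotation, used here for gene positions, starts *Nkg7* at 43437073, upstream of this site. By that annotation the *Nkg7* site lies inside the gene. Of 32851 promoter windows of all genes, 1.28% held this site. The shorter core GGTGTG, which both of these matches also contain, was found in *Nkg7*, *Rab27a*, *Ctsc* and *Stx11*, and in 19.0% of all windows. Neither was present in the windows of *Prf1* or *Srgn*, which says only that these letters are not in the 300 bases searched.

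Eomes overexpression was first checked in the level listed for *Eomes*, in which transcripts of the vector and of the gene itself cannot be told apart. The RPKM of *Eomes* was 2.47 in control cells and 129.6 in cells with the Eomes vector. General T cell genes were abundant in both libraries, with RPKM values of 189.4 and 159.0 for *Cd3d* and of 145.2 and 122.9 for *Cd3e*. The summed RPKM of 7 markers read for CD8+ T cells, *Cd3d* and *Cd3e* included, was 1339.8 and 1053.1. All 7 had a log2 ratio below 0, as did 50.5% of the 9925 expressed genes. As deposited, 1 of the 7 was more than 1.5-fold lower (*Cd8a*, at 181.8 and 99.1), against 5.19% of all expressed genes. Relative to genes of similar GC content *Cd3g* (264.4 and 196.5) was so too, with a log2 ratio of -0.69. By that measure 4.89% of genes were more than 1.5-fold lower. These values come from bulk RNA, in which fewer cells of a type and less RNA per cell cannot be told apart.

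*Prf1*, on chromosome 10 of mm10 from 61297833 to 61304680, was the most abundant of the 10 transcripts in both libraries. Control OT-I cells had a *Prf1* RPKM of 709.1, and Eomes-overexpressing cells one of 940.3. The level was thus 32.6% higher with Eomes (log2 ratio 0.41). This is under the 1.5-fold change (log2 ratio 0.58) that the study used as its fold threshold, beside a statistical cutoff. Among the 910 genes whose mean RPKM over both libraries was 100 or more, 98.9% had a lower log2 ratio than *Prf1*, and 95% of their log2 ratios lay between -0.45 and 0.31. *Prf1* therefore lay outside the central range of genes of similar abundance while its fold change was modest.

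*Nkg7*, on chromosome 7 from 43437073 to 43438249, encodes a small membrane protein of cytotoxic granules that is needed for efficient degranulation. Its RPKM was 649.7 and 785.4, which is 20.9% higher with Eomes (log2 ratio 0.27). Of the 910 abundant genes, 96.5% had a lower log2 ratio, so that *Nkg7* was toward the upper end of their range without leaving it. *Prf1* and *Nkg7* kept nearly the same proportion to each other, the RPKM of *Prf1* being 1.09 and 1.20 times that of *Nkg7*.

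*Srgn*, on chromosome 10 from 62493833 to 62527451 on the minus strand, differed the other way. Its RPKM was 198.7 and 136.7, which is 1.45-fold lower with Eomes (log2 ratio -0.54). Of the 910 abundant genes, 1.43% had a lower log2 ratio, so that *Srgn* too lay outside their central range. The transcripts at opposite ends of the 10 encode a cargo of the granule and the matrix protein that holds it. Having the highest and lowest log2 ratios, they form the pair with the largest change of any among the 10 genes. The RPKM of *Prf1* was 3.57 times that of *Srgn* in control cells and 6.88 times with Eomes. This change of 0.95 on the log2 scale does not depend on any factor that scales 1 library to the other. For *Nkg7* over *Srgn* the same ratio was 3.27 and 5.75.

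**Figure D1:**
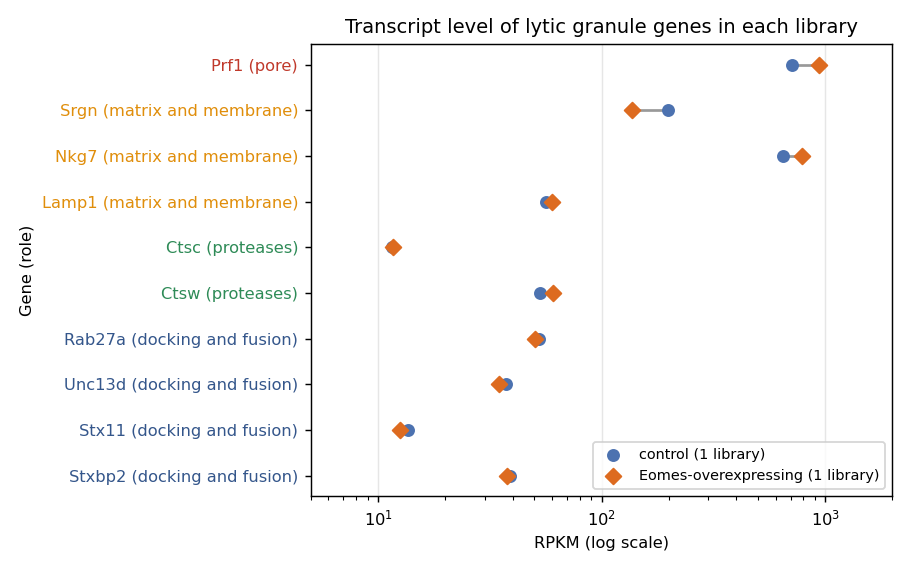
RPKM (log axis) of the 10 genes in the control library (circles) and the Eomes-overexpressing library (diamonds), 1 value per gene and library, with gene names coloured by role. Perforin and *Nkg7* sat higher and *Srgn* lower with Eomes, and the symbols of the other 7 genes lay close together or overlapped.

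*Lamp1* encodes the lysosomal membrane glycoprotein CD107a, which appears on the cell surface when granules are released. Its RPKM was 56.5 and 59.8 (log2 ratio 0.083), so the level was nearly the same. The gene lies on chromosome 8 from 13159161 to 13175338, where its exons overlap *Grtp1* on the opposite strand. Since the sources used here do not say whether reads were counted by strand, reads from the 2 genes cannot be told apart in that overlap.

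Among the proteases, *Ctsc* encodes cathepsin C, the dipeptidyl peptidase that removes the propeptide of granzymes and so activates them. Its RPKM was 11.58 and 11.64, the smallest difference among the 10 genes as deposited (log2 ratio 0.0075). *Ctsw*, which encodes the cathepsin W of cytotoxic lymphocytes, was at an RPKM of 53.0 and 60.7 (log2 ratio 0.19). Of 1899 genes with a mean RPKM of 30 to 100, 85.4% had a lower log2 ratio than *Ctsw*. *Ctsc* is on chromosome 7 from 88278085 to 88310888 and *Ctsw* on chromosome 19 from 5465043 to 5468507, where its exons overlap *Fibp* on the opposite strand.

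The 4 docking and fusion genes all had slightly lower values with Eomes as deposited (*Unc13d* and *Stxbp2* were just above 0 relative to genes of similar GC content), and all lay well inside the range of genes of similar abundance. *Rab27a*, on chromosome 9 from 73044854 to 73097629, had RPKM values of 52.4 and 50.2 (log2 ratio -0.063). *Unc13d*, on chromosome 11 from 116062095 to 116077961, was at 37.3 and 34.9 (log2 ratio -0.096). *Stx11*, on chromosome 10 from 12938209 to 12964298, was at 13.6 and 12.5, the largest difference of the 4 (log2 ratio -0.13). In order, these genes encode the tethering GTPase, the priming factor and the syntaxin. *Stxbp2*, on chromosome 8 from 3630955 to 3643644, encodes the chaperone of that syntaxin and was at 39.1 and 37.6 (log2 ratio -0.058).

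The exons of *Rab27a* overlap the predicted gene *Gm27186* on the same strand, so reads could have been split between them and its level is uncertain to that extent. Between 25.4% and 37.1% of the genes in their bands of mean RPKM had a lower log2 ratio than these 4 genes. For the 1899 genes with a mean RPKM of 30 to 100, 95% of log2 ratios lay between -0.42 and 0.40, and for the 2862 genes with 10 to 30 between -0.55 and 0.45. The proportions within the docking machinery also stayed close, with *Stxbp2* at 2.87 and 3.01 times the RPKM of *Stx11* and *Unc13d* at 0.711 and 0.696 times that of *Rab27a*. The summed RPKM of the 4 genes was 142.5 and 135.2. The RPKM of *Prf1* was 13.5 times that of *Rab27a* in control cells and 18.7 times with Eomes, and 19.0 and 26.9 times that of *Unc13d*.

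**Figure D2:**
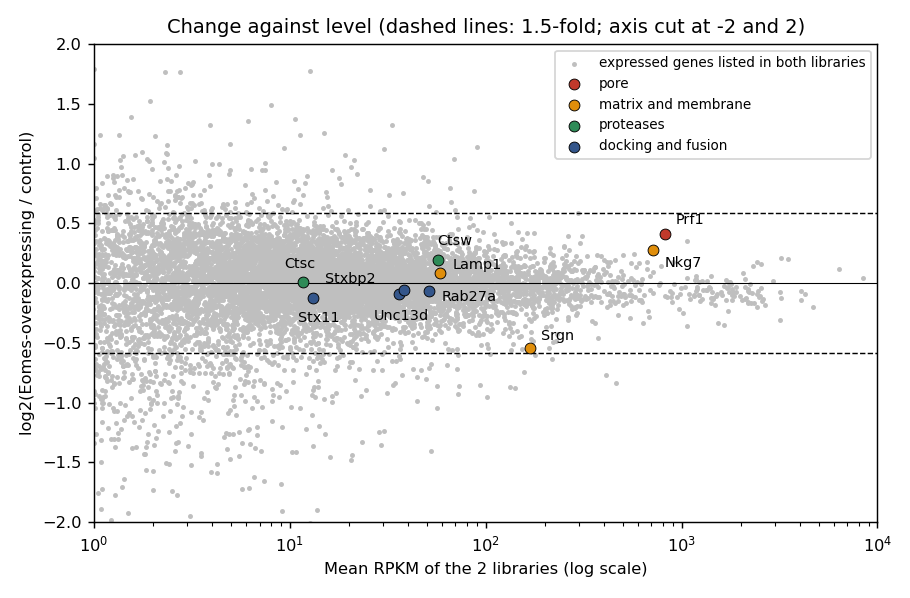
Log2 ratio of Eomes-overexpressing over control against the mean RPKM of the 2 libraries (log axis), with each grey point an expressed gene listed in both and the 10 genes coloured by role. All 10 lay between the dashed 1.5-fold lines, with *Prf1* at 0.41 and *Srgn* at -0.54 at the edges of the cloud at their abundance.

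Past the 1.5-fold threshold, 0 of the 10 genes were higher and 0 were lower with Eomes. The shares among all 9925 expressed genes were 2.46% higher and 5.19% lower, small enough that a count of 0 among 10 genes is no result about them. At a smaller difference, a log2 ratio beyond 0.32 in either direction, 1 gene was higher (*Prf1*, against 10.7% of expressed genes) and 1 was lower (*Srgn*, against 12.0%). These counts too are near the shares of all expressed genes, but those shares were smaller among abundant genes. At a mean RPKM of 100 or more, where *Prf1* and *Srgn* lie, 2.20% were higher and 5.27% lower. At 30 to 100 the shares were 5.48% and 5.37%, and at 10 to 30 they were 8.14% and 8.14%. With 1 gene in each direction, the counts are no result about the 10. The median log2 ratio of the 10 genes was -0.025 (0.014 relative to genes of similar GC content), and that of the expressed genes -0.0037. The log2 ratio was above 0 for 5 genes and below 0 for 5, against 49.2% and 50.5% of expressed genes. The log2 ratios farthest from 0 were those of *Srgn*, *Prf1* and *Nkg7*.

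Of the RPKM summed over all genes, the 10 transcripts made up 0.324% in control OT-I cells and 0.388% with Eomes. The 7 genes other than *Prf1*, *Nkg7* and *Srgn* made up 0.0469% and 0.0487%. In control, the order from the highest to the lowest level was *Prf1*, *Nkg7*, *Srgn*, *Lamp1*, *Ctsw*, *Rab27a*, *Stxbp2*, *Unc13d*, *Stx11* and *Ctsc*. In Eomes-overexpressing cells, *Ctsw* and *Lamp1* changed places and the other 8 genes kept theirs. Without replicates it cannot be said which neighbours in this order differ. By RPKM among all genes, *Prf1* was at rank 117 and 100, and *Srgn* at rank 431 and 648.

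The log2 ratio varied with the GC content of the transcript across all expressed genes, with a median of 0.23 in the 10% of genes with the lowest GC content and of -0.10 in the 10% with the highest. *Srgn* has a GC content of 42.8% and *Ctsc* of 41.1%, where the median gene was higher with Eomes. *Prf1* (53.6%) and *Nkg7* (53.1%) are in the range where the median gene was lower. Relative to the median of the genes nearest in GC content, the log2 ratio was 0.48 for *Prf1*, 0.36 for *Nkg7* and -0.69 for *Srgn*, which took *Srgn* past 1.5-fold lower. *Ctsw* was then at 0.30 and *Ctsc* at -0.20, and *Unc13d* and *Stxbp2* were just above 0, at 0.0075 and 0.020.

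**Figure D3:**
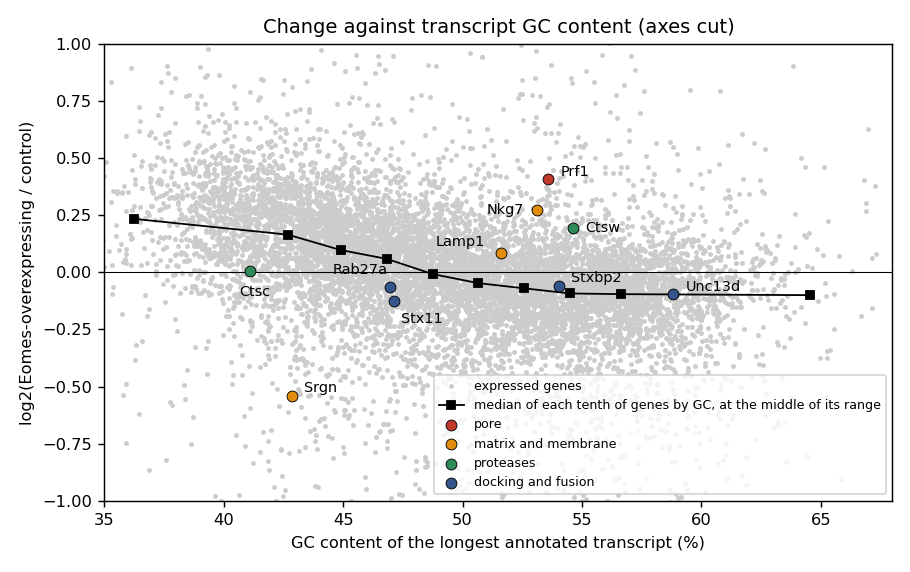
Log2 ratio of Eomes-overexpressing over control against transcript GC content (%, longest transcript in the annotation), with expressed genes in grey, the medians of 10 groups of genes by GC content as black squares and the 10 genes coloured by role. *Prf1*, *Nkg7* and *Ctsw* lay above and *Srgn* and *Ctsc* below the medians of genes with similar GC content.

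Genes that act with these 10 were followed in 5 lists, which held 118 genes, of which 111 were expressed. Past 1.5-fold, 1 of them was higher and 4 were lower, against the 2.46% and 5.19% of all expressed genes. The median log2 ratio was -0.026. The proteins that tether granules to the membrane or form the SNARE complex included genes with opposite differences. *Sytl2*, which encodes the Rab27 effector Slp2, had RPKM values of 3.40 and 6.41 (log2 ratio 0.91). *Sytl1*, which encodes the related Slp1, was at 24.9 and 15.3 (log2 ratio -0.71). Their relative *Sytl3* was at 41.0 and 34.5.

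The Rab GTPase gene *Rab37* was at 3.21 and 1.87 RPKM (log2 ratio -0.78). Of the 23 expressed SNARE and tethering genes, 1 was more than 1.5-fold higher and 2 lower, against 2.46% and 5.19% of all expressed genes. Their median log2 ratio was -0.014. The most abundant of them was *Vamp8*, a vesicle SNARE gene, with an RPKM of 104.3 and 83.2. *Sytl2* and *Rab37* were at low levels, and the number of reads behind them is not known.

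Of the 22 expressed lysosomal membrane and content genes, 18 had a log2 ratio below 0, against 50.5% of all expressed genes, and the median was -0.16 against -0.0037. Against 5.19% of all expressed genes, a single one of them was more than 1.5-fold lower. This was *Ctss*, which encodes the lysosomal protease cathepsin S and had RPKM values of 17.1 and 9.20 (log2 ratio -0.90). The most abundant gene was *Calr*, which encodes the chaperone calreticulin, at 917.7 and 914.0. *Cst7* encodes cystatin F, an inhibitor of cathepsin C, and was at 154.9 and 116.7 (log2 ratio -0.41), while *Ctsc* itself was nearly equal as deposited. *Cd63*, whose protein marks granule membranes, was at 4.72 and 3.16, just inside 1.5-fold.

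None of the 25 expressed genes for granule biogenesis and lysosomal sorting, such as the most abundant, *Rab7* (RPKM 131.6 and 129.5), was past 1.5-fold. Their median log2 ratio was -0.0015. The same held for the 15 subunits of the proton pump that acidifies the granule, with a median of -0.047 and *Atp6v0c* as the most abundant at 201.9 and 188.5. Among 26 expressed genes for granule transport and actin at the synapse, the median was 0.053. The only gene of the 26 past 1.5-fold was *Orai1*, which encodes the calcium channel whose opening triggers granule release. It was lower, at 25.6 and 16.2 (log2 ratio -0.66), as were 5.19% of all expressed genes by more than 1.5-fold. Relative to genes of similar GC content its log2 ratio was -0.56, which is inside 1.5-fold. The actin regulator gene *Coro1a* was the most abundant, at 879.9 and 811.0.

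**Figure D4:**
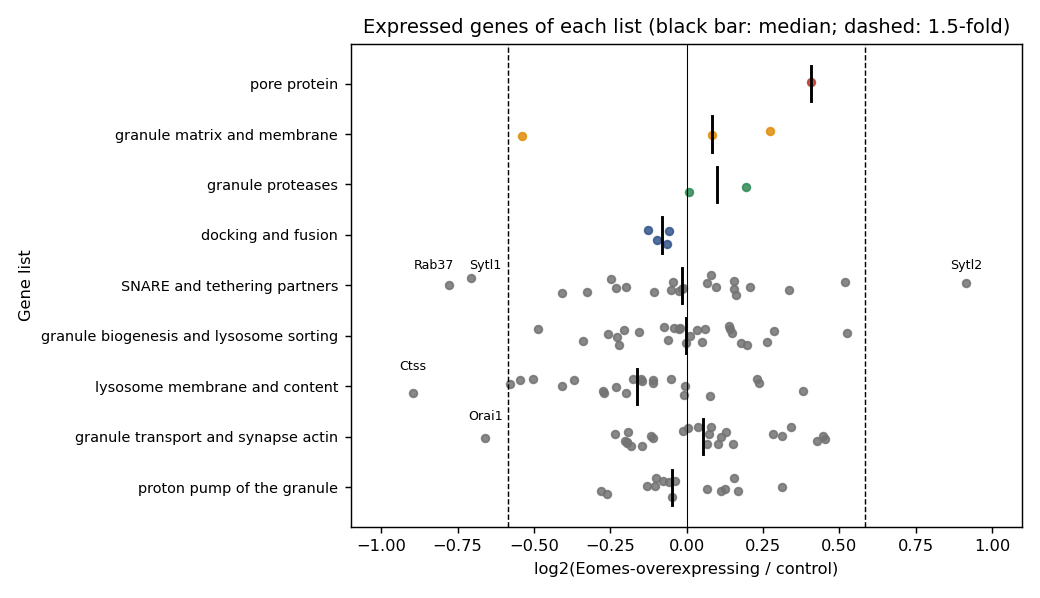
Log2 ratio of Eomes-overexpressing over control for each expressed gene of the 4 roles and of the 5 lists of partner genes, with the median of each as a black bar and 1.5-fold as dashed lines. Genes past 1.5-fold are named, and the 4 docking and fusion genes form a narrow group between -0.13 and -0.058, of which *Unc13d* and *Stxbp2* were just above 0 relative to genes of similar GC content.

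Natural killer cells also express perforin and *Nkg7*, and their markers were therefore read in the same libraries. The 6 markers summed to an RPKM of 1.92 and 7.14. The difference lay in *Klrb1c*, which encodes NK1.1, at 0.31 and 5.74. The markers *Ncr1* and *Klra8* were not listed in either library, and *Klre1* was at 1.51 and 1.40. The part of this difference in the levels of *Prf1* and *Nkg7* was not tested.

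The 6 mast cell and basophil markers summed to 1.15 and 5.05, mainly through *Mcpt8* at 0.37 and 3.94, with *Kit* at 0.78 and 1.04. Of that list, *Mcpt4*, *Fcer1a* and *Tpsb2* were not listed in either library, and *Cpa3* was at 0.07 in Eomes-overexpressing cells only. Of the B cell markers, *Cd79b* was at 2.79 and 1.56 and *Cd79a* at 0.08 and 0.04. The summed RPKM was 1.40 and 1.28 for 8 myeloid markers, mainly through *Cd14* at 1.39 and 1.12 (*Lyz2* and *Csf1r* not listed). For 6 dendritic cell markers it was 2.77 and 1.93, mainly through *Xcr1* at 1.79 and 1.11 (*Flt3* 0.05 and 0.03, *Itgax* 0.17 and 0.18). It was 0.53 and 0.23 for 3 CD4+ T cell markers (*Cd4* 0.03 and 0.08, *Cd40lg* 0.41 and 0.08), and 0.26 and 0.13 for 8 erythroid and platelet markers (*Hbb-bs* and *Hbb-bt* not listed).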

How the data were processed

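Each group was 1 library of total RNA. The authors filtered reads with SOAPnuke, used HISAT, Bowtie2 and RSEM with the mm10 build, and deposited FPKM values (called RPKM in their methods and here), 1 per gene symbol, with 2 decimals and listed from 0.01 upward. They name no scaling between the libraries. Symbols that had become dates were left out (20 in control, 19 in Eomes-overexpressing cells), which left 14110 and 13966 genes.

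Before log2 ratios were taken, unlisted genes and values below 0.01 were given 0.01 (Python 3.11.15 with numpy 2.4.6, pandas 2.3.3 and, for plots, matplotlib 3.10.9). With 1 library per group no test was made. Read depth is not known from the files, so no counting interval is given. Positions and GC content are those of the gene and its longest transcript in GENCODE vM21 (GRCm38, the same build as mm10), and GC content was found for 99.1% of expressed genes. The steps were tested on simulated data.

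The 10 genes and all lists were chosen with earlier results of these data known. Besides the 10 genes and *Eomes*, the rule named the genes of each partner list past 1.5-fold, the most abundant of each and the first 2 markers of each cell type. *Sytl3*, *Cst7*, *Cd63*, *Cd8a*, *Cd3g*, *Cd79b*, *Cd14*, *Xcr1*, *Kit*, *Klra8*, *Klre1*, *Mcpt8*, *Fcer1a* and *Tpsb2* were named after their values were seen. The sum over the B cell markers is not reported here. Alternatives were pseudocounts of 0.1 and 1, scaling by summed RPKM, trimmed mean or median, centring in 20 bins of GC content, other fold thresholds, and a minimum RPKM of 5 or none.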

Additional observations from a re-analysis of the deposited data

How the results depend on the processing

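No paired analysis was possible because each group is 1 library. For the 10 genes, 0 were more than 1.5-fold higher under every other scaling, pseudocount and GC centring, and 1 (*Prf1*) was past a log2 threshold of 0.32. The minimum RPKM settings and the 2-fold threshold also gave 0, but they could not have changed the count in either direction. The lowest RPKM of the 10 was 11.58 (*Ctsc*), and 0 were past 1.5-fold as deposited. The number more than 1.5-fold lower became 1 (*Srgn*) with GC centring and 1 (*Srgn*) past a log2 threshold of 0.32, and was 0 under the other alternatives. For comparison, GC centring put 4.89% of the 9835 genes with a GC value beyond 1.5-fold on the lower side. On the higher side it put 1.96% there. At these shares, a count of 1 among 10 genes does not stand out. The cause of the GC dependence was not tested. Over all scalings, pseudocounts and GC centring, the log2 ratio of *Prf1* ran from 0.41 to 0.48 and that of *Nkg7* from 0.27 to 0.36. For *Srgn* it ran from -0.69 to -0.51. The values 0.48, 0.36 and -0.69 were those with GC centring. The log2 ratios of 3 genes (*Ctsc*, *Unc13d* and *Stxbp2*) changed sign with GC centring. Of 60 log2 ratios of single genes under alternatives, 4 moved by more than 0.1, all with GC centring. Over all genes, 1356 were more than 1.5-fold higher and 2088 lower with no minimum RPKM, and 95 and 213 with a minimum of 5. With that minimum, *Rab37* is no longer counted, and 1 SNARE or tethering gene was more than 1.5-fold lower. The values describe 2 libraries, not the conditions.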
